A study of Mus musculus with 24 samples.

Results

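The cytosolic ribosome is built from ribosomal RNA and a large set of ribosomal proteins, and their mRNAs were compared in 24 mouse RNA-seq libraries. The genes were taken by name from the protein-coding genes of the Gencode annotation, as those with an Rpl or Rps number, Rplp0 to Rplp2 and Rpsa, without the kinases named Rps6k. The rule gave 92 of the 49671 genes counted. They comprised 77 core genes that encode the standard ribosomal proteins (31 of the small and 46 of the large subunit), 8 paralogues (Rpl3l, Rpl7l1, Rpl10l, Rpl22l1, Rpl36al, Rpl39l, Rps27l and Rps27rt), 6 genes with a pseudogene-style ps symbol that the annotation lists as protein-coding and Rps19bp1, whose product binds Rps19 and is not a ribosomal protein. Of the 92, 88 passed the filter on low counts, all 77 core genes among them.

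The 6 groups held 4 libraries each. NSC were neural stem cells made from 1 mouse embryonic stem cell line (GSC-5003, from C57BL/6 N mice), kept in FGF and EGF at 20 ng/ml each and used at passages 50 to 60. AGES were astrocytes made from these NSC with BMP4 at 20 ng/ml for 3 to 5 days. The methods list no FGF or EGF for AGES and another coating than for NSC. Between AGES and NSC these changes and BMP4 cannot be told apart. Neonatal (neoAC) and adult (AdAC) astrocytes came from C57BL/6J mice aged 4 to 8 days and 100 to 140 days, with sexes mixed and 2 mice per isolation by the study's methods, and were isolated on magnetic beads against ACSA-2. They were either frozen at once (direct) or cultured for 7 to 10 days (CellC). Neonatal and adult brains were dissociated with different kits, so age and dissociation cannot be told apart. NSC and AGES differ from all mouse-derived groups in cell line and substrain together, which cannot be told apart either. They also differ from the cultured primary astrocytes in medium and coating, which cannot be told apart from the cell line. By the study's methods a replicate is a separate isolation for the primary astrocytes and an independent culture of another passage for NSC and AGES, so the replicates of these last groups are cultures of 1 line.

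Ribosomal protein mRNAs are among the most abundant of a growing cell. Most begin with a run of pyrimidines at the very 5′ end, the TOP tract, through which the kinase mTORC1 and the protein Larp1 set how much of the mRNA is translated, while Myc raises transcription of ribosome genes and RNA polymerase I makes the ribosomal RNA. Each ribosome carries a single copy of nearly every ribosomal protein, so the mRNAs are usually made in parallel. A few proteins have a further gene, often a retrocopy or duplicate with restricted expression: Rpl3l in heart and skeletal muscle, Rpl10l and Rpl39l in testis, and Rps27l, a target of p53.

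The RNA was selected for poly(A) tails, and the libraries held 27904126 to 37997368 counts on genes. In the AdAC direct libraries the 8 oligodendrocyte markers summed to 26869 to 29741 CPM, against 4378 to 11189.6 CPM in AdAC CellC and 18.5 to 28.1 CPM in NSC, while the 10 astrocyte markers summed to 16246 to 16965 CPM in AdAC direct, 1002 to 1521 CPM in AdAC CellC, 21786 to 24601 CPM in neoAC direct, 7627 to 8838 CPM in neoAC CellC, 55369 to 60310.5 CPM in AGES and 2018 to 2545 CPM in NSC. Thus the summed astrocyte markers were lowest in AdAC CellC, below NSC. Such a sum is led by the markers with most counts. By the median marker NSC and AdAC CellC were nearly level, with AGES higher by 2.44 (log2) than NSC and by 2.38 than AdAC CellC. In AdAC CellC 9 of the 10 markers had fallen against AdAC direct, although none was at or under 3 counts. CPM are read counts scaled to one fixed library total after TMM scaling. Fewer cells of a type and less RNA per cell cannot be told apart in bulk libraries, and the part of other cell types in the differences below was not tested. The oligodendrocyte, fibroblast and neuron sums moved with adult culture: the 7 fibroblast and meningeal markers went from 112 to 132 CPM to 1088 to 1575 CPM and the 8 neuron markers from 48.5 to 60.4 CPM to 178 to 249 CPM. The 8 endothelial and mural markers went from 292 to 318 CPM to 151 to 185 CPM in adult culture. In neonatal culture they went from 284 to 730 CPM to 49.0 to 60.9 CPM. The 7 ependymal and choroid plexus markers went from 1289 to 1515 CPM to 472 to 679 CPM in adult culture. In neonatal culture they went from 706 to 1392 CPM to 1894 to 2904 CPM. The sex-linked genes, chosen after their values were seen, split the primary groups. Y-linked Eif2s3y held 1 to 3 counts per library in AdAC direct and 1573 to 2540 in neoAC direct, and Xist, the RNA of the inactive X chromosome, 37225 to 60299 and 31 to 42. Sex and age therefore cannot be told apart in the direct libraries. In the cultured ones Eif2s3y held 539, 845, 760 and 1 counts in AdAC CellC replicates 1 to 4 and 430, 1247, 3 and 2 in those of neoAC CellC, so the balance of the sexes also moved with culture, and its part was not tested. NSC held 849 to 1172 counts of Eif2s3y and 24 to 58 of Xist, and AGES 1656 to 2280 and 23 to 53. Y-linked Ddx3y held at most 2 counts in a library of either group. The part of sex in their differences from the primary astrocytes was not tested. The 8 microglia markers stayed between 0.312 CPM in an AGES library and 68.4 CPM in a neoAC direct library.

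Many start sites of these genes lie at a pyrimidine run in the genome sequence. The lines show 30 bases of the sense strand, from 15 before to 15 after a start site of the RefSeq annotation (GRCm38.p6). Capitals mark the longest run of a C followed by at least 5 pyrimidines found within 20 bases of the start. Rpl22 and Rps27l have a further annotated start, not shown, without a run. The first 5 are core genes with a long run, and the others let a paralogue be read beside its parent.
Rps6 (chr4:86857353-86857382, minus strand): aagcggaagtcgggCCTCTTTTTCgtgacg
Rps18 (chr17:33955651-33955680, minus strand): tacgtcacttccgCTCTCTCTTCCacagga
Rps10 (chr17:27635230-27635259, minus strand): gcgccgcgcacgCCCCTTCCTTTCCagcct
Rpl15 (chr14:18270972-18271001, minus strand): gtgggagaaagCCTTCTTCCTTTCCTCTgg
Rpl35 (chr2:39005117-39005146, minus strand): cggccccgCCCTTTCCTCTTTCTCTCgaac
Rps27 (chr3:90213634-90213663, minus strand): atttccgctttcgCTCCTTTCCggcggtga
Rps27l (chr9:66946071-66946100, plus strand): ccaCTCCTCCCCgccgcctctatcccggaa
Rps27rt (chr9:114982725-114982754, minus strand): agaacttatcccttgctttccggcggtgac
Rpl22 (chr4:152324421-152324450, plus strand): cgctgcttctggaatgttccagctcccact
Rpl22l1 (chr3:28805493-28805522, plus strand): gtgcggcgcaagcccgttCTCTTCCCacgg
Rpl36a (chrX:134585639-134585668, plus strand): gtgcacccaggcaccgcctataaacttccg
Rpl36al (chr12:69184053-69184082, minus strand): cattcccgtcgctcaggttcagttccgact
In Rps27 the run spans the start site, whereas the run of Rps27l lies wholly before its annotated start. In Rpl22l1 it follows the start. In Rps27rt the longest run lies 17 bases after the start, beyond the line shown. A shorter run that also meets the definition begins at the start of Rps27rt and stays in small letters in its line. The windows of Rpl22, Rpl36a and Rpl36al held no such run within 20 bases of the start.

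RefSeq windows (250 bases before to 50 after the start) were at hand for 57 of the 77 core genes, in 67 windows, with 20 core genes not matched. The pyrimidine run occurred on the sense strand near the start in 41 of 67 core windows (61.2%) and 31.4% of all 32851 windows. The letters CCGGAA, searched on both strands, were in 33 of 67 core windows (49.3%) and 14.9% of all 32851 windows. GGGCGG was in 41 of 67 core windows (61.2%) and 35.7% of all 32851 windows, and CCAAT in 21 of 67 core windows (31.3%) and 37.4% of all 32851 windows. TATAA, at 23.9% against 24.9%, AAGATGGC, at 10.4% against 2.75%, and CACGTG, at 11.9% against 7.15%, were also counted on both strands. A match is a description of letters, not a site. The 38 core genes with the run and the 19 without it had median log2 fold changes of 1.88 and 1.98 for adult culture and of -1.12 and -1.004 for AGES against NSC.

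The 77 core genes together took a share of the library that ordered the groups. In NSC they held 5.03% ± 0.569 of gene counts (SD, n = 4), in AdAC CellC 3.44% ± 0.234, in AGES 2.16% ± 0.150, in neoAC CellC 1.88% ± 0.166, in neoAC direct 1.58% ± 0.127 and in AdAC direct 0.833% ± 0.0415. The mean share of NSC was 6.03 times that of AdAC direct, and the share of AdAC CellC was 4.12 times that of AdAC direct. Library ranges of neighbouring groups met in 2 places. AGES (2.02 to 2.37%) overlapped neoAC CellC (1.71 to 2.10%), which overlapped neoAC direct (1.44 to 1.75%), while NSC, AdAC CellC and AdAC direct each stood clear of the rest. NSC replicate 2, at 5.83%, was the highest library. By group means 74 of the 77 core genes were highest in NSC and 76 were lowest in AdAC direct, with no such shares over all genes at hand. The exceptions were Rpl29, Rplp0 and Rps3a1, highest in AdAC CellC, and again Rpl29, lowest in AGES.

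**Figure D1:**
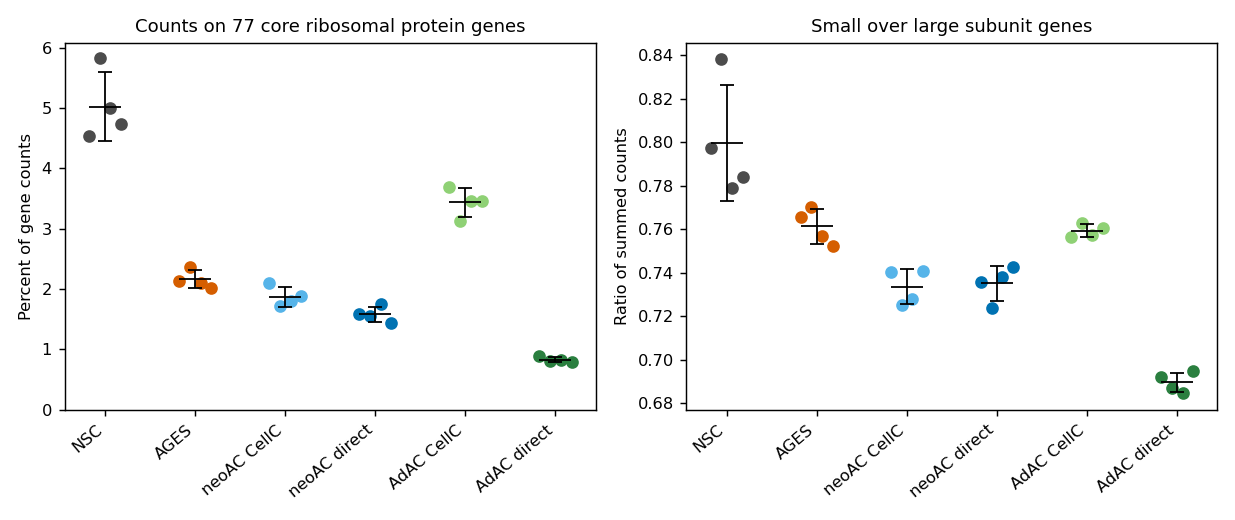
The left panel plots the percent of gene counts on the 77 core genes and the right panel the ratio of summed small to large subunit counts, one dot per library, with the group mean and SD in black. The share ran from 0.795% in an AdAC direct library to 5.83% in an NSC library, and the ratio was lowest in AdAC direct and highest in NSC (the right axis does not start at 0).

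Culture of adult astrocytes raised every core gene. All 77 of 77 were called higher in AdAC CellC than in AdAC direct (edgeR quasi-likelihood test, Benjamini-Hochberg adjusted p under 0.05 over the 19691 genes tested), where 38.8% of all genes were called higher and 39.2% lower. The median log2 fold change of the core genes was 1.88, a 3.68-fold rise, beside 0.00 over all genes, and it was 1.87 for the small and 1.89 for the large subunit. The 4 cultured libraries lay above the 4 direct libraries in all 77 genes, and the share of all genes that separate in this way is not given here. Counts on Gm42418, a gene that overlaps a ribosomal RNA repeat, moved with adult culture, from 0.0558% ± 0.00861 of gene counts in AdAC direct to 0.601% ± 0.594 in AdAC CellC (SD, n = 4), where replicate 1 held 1.49%. Without that library 77 core genes were still called higher, with a median of 1.86.

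Rps2, a small subunit protein near the mRNA entry channel, changed most. It stood at 122, 134, 142 and 129 CPM in AdAC direct and at 1230.4, 1202, 1122 and 1251 CPM in AdAC CellC (log2 fold change 3.19 ± 0.16 (SE), adjusted p = 2.03e-15). Its exons overlap the antisense gene Snhg9. Rplp0, the base of the ribosomal stalk and a common reference gene for qPCR, had the largest rise of the large subunit. Its values were 195, 189.9, 195 and 189 CPM in AdAC direct and 1223, 1052, 1160.2 and 1201 CPM in AdAC CellC (log2 fold change 2.59 ± 0.13 (SE), adjusted p = 1.19e-15). Rpsa, a small subunit protein also known as the laminin receptor, went from 217, 212, 224 and 225 CPM to 1266, 1135, 1248 and 1264 CPM (log2 fold change 2.49 ± 0.14 (SE), adjusted p = 1.91e-14). In each of these genes the direct libraries lay close together and far below the cultured ones. Rps6, the target of the S6 kinases, went from 92.1, 91.7, 91.7 and 92.5 CPM to 355, 303, 327 and 344 CPM (log2 fold change 1.85 ± 0.10 (SE), adjusted p = 1.43e-14). Rps19, the gene most often mutated in Diamond-Blackfan anaemia, rose by 2.58 ± 0.12 (log2, SE). Rpl5 and Rpl11, which bind Mdm2 when ribosome assembly fails, rose by 1.69 ± 0.09 and 1.81 ± 0.09, Rpl10, among the last proteins to join the large subunit, by 1.98 ± 0.08, and Rpl41, which encodes a very short basic peptide, by 2.32 ± 0.16. The smallest rises of the small and the large subunit were those of Rps27 at 1.22 ± 0.11 and Rpl24 at 0.95 ± 0.21. Rpl24 had only 28 to 106 counts per library. Its exons are shared with the read-through gene Gm28037, listed at 0 in every library, so its value is uncertain, and likewise Rpl13a shares exons with Gm45713.

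Culture of neonatal astrocytes moved few core genes, in both directions. Of the 77, 9 were called higher and 10 lower in neoAC CellC than in neoAC direct, beside 34.4% and 31.3% of all genes, and 58 passed in neither direction. The median log2 fold change was -0.02 (-0.02 small, -0.03 large subunit), and 0.04 over all genes. This balance depended on the scaling: with library size alone, 35 core genes were called higher and 0 lower, with a median of 0.21, while the median of all genes moved to 0.27 and the percent of all calls that were higher from 52.3% to 65.9%. The 9 genes called higher were Rpl15, Rpl38, Rpl41, Rplp0, Rplp1, Rplp2, Rps16, Rps2 and Rps6, which include the 3 stalk proteins. Among the 10 called lower were Rpl3, Rpl5, Rpl7a, Rpl10, Rpl14, Rpl23a, Rpl28, Rps12 and Rps23. The ends of each subunit were Rps2 (0.59 ± 0.15) and Rpl41 (0.59 ± 0.15) at the top and Rpl23a (-0.41 ± 0.09) and Rps23 (-0.37 ± 0.09) at the bottom for the large and small subunit, with Rpl5 at -0.37 ± 0.09, Rpl10 at -0.32 ± 0.08, Rps12 at -0.30 ± 0.09, Rplp0 at 0.34 ± 0.12 and Rps6 at 0.24 ± 0.10 (log2, SE). Libraries did not overlap in 8 of the 77 genes, with no such share over all genes at hand. In Rpl41 the neoAC direct libraries held 346, 388, 452 and 208 CPM, with replicate 4 lowest, and the neoAC CellC libraries 596, 476, 518 and 506 CPM. The low calls of Rpl23a, Rps23, Rpl5, Rpl10 and Rps12 did not pass with library size alone, and Rplp0 did not pass without neoAC CellC replicate 1 or neoAC direct replicate 4. Rps6 did not pass without neoAC CellC replicate 1 or 4 or neoAC direct replicate 4, without a filter, or with only the compared groups in the fit.

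The difference between the culture responses was tested as an interaction term, the adult log2 change minus the neonatal one. All 77 core genes were called with a larger rise in adult culture, beside 35.4% of all genes called in that direction and 33.2% in the other. The median of the difference was 1.92 (1.99 small, 1.91 large subunit) and 0.05 over all genes. Within the small and the large subunit it was widest in Rps12 (log2 fold change 2.83 ± 0.14 (SE), adjusted p = 2.76e-15) and Rpl12 (log2 fold change 2.56 ± 0.16 (SE), adjusted p = 4.12e-13), and narrowest in Rps27 (1.14 ± 0.16) and Rpl24 (1.03 ± 0.29). Rps12 stood at 88.9, 81.3, 82.8 and 80.3 CPM in AdAC direct, 522, 407, 486 and 508 CPM in AdAC CellC, 259, 239, 302 and 233 CPM in neoAC direct and 245, 184, 204 and 207 CPM in neoAC CellC. The adult pair was far apart and the neonatal pair overlapped.

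**Figure D2:**
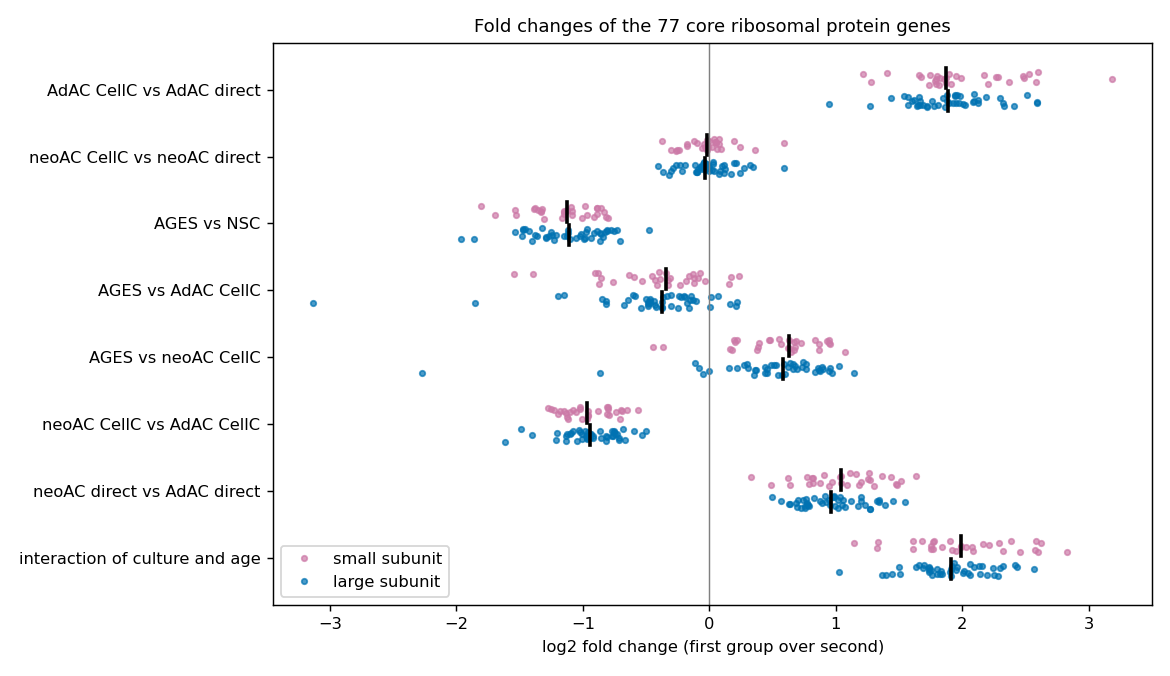
Each dot is the log2 fold change of 1 core gene in 1 comparison, small subunit above and large subunit below, with the median of each subunit as a black bar. In 5 of the 7 comparisons and in the interaction the medians lay apart from 0 in both subunits by more than 0.5, while neoAC CellC vs neoAC direct centred on -0.02 and AGES vs AdAC CellC on -0.38. Rpl29 is the lone dot at -3.13 and -2.27 in the AGES comparisons with cultured astrocytes.

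Age separated the core genes in opposite directions before and after culture. In the direct libraries all 77 core genes were called higher in neonatal than in adult astrocytes (median log2 fold change 0.99, 1.04 small and 0.97 large subunit), beside 35.0% of all genes called higher and 36.4% lower. In culture all 77 were called lower in neonatal than in adult astrocytes (median -0.96, -0.97 small and -0.94 large subunit), beside 35.2% of all genes called lower and 28.5% higher. In the direct libraries the small and large subunit were led by Rps12 (1.63 ± 0.10) and Rpl39 (1.55 ± 0.14), and closed by Rps6 (0.33 ± 0.10) and Rpl24 (0.49 ± 0.21, adjusted p = 0.0422), the call of Rpl24 being lost under several alternatives. Libraries overlapped in Rpl24 only among the core genes, and the share of all genes without overlap is not given here. Rps6 held 118, 119, 127 and 99.5 CPM in neoAC direct against the adult values given above, a narrow gap without overlap. In culture the ranges of the large and small subunit ran from Rpl10 (log2 fold change -1.62 ± 0.08 (SE), adjusted p = 1.49e-14) and Rps6 (-1.28 ± 0.10) to Rpl41 (-0.50 ± 0.15) and Rps29 (-0.56 ± 0.10). The neoAC CellC libraries held 179, 150.1, 153 and 179 CPM of Rpl10, far below the 535, 469.9, 506 and 519 CPM of AdAC CellC. The oligodendrocyte and proliferation markers moved with age too. All 8 oligodendrocyte markers were lower in neonatal astrocytes in the direct libraries (median -9.53) and 8 in culture (-6.54), with sums of 324 to 398 CPM in neoAC direct and 252 to 339 CPM in neoAC CellC beside the adult sums given above. Of the 20 proliferation markers, 20 were higher and 0 lower in neonatal astrocytes in the direct libraries (median 3.72), and 2 and 9 in culture (-0.31). The part of either list, and of the sex difference given above, in the core gene values was not tested. The comparisons of age share their libraries with those of culture, so the 4 sets of values are not independent.

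Differentiation of NSC into AGES lowered every core gene. All 77 were called lower in AGES, beside 34.0% of all genes called lower and 31.7% higher. No library of one group overlapped the other in any of the 77, and the share of all genes without overlap is not given here. The median log2 fold change was -1.12, a 2.17-fold fall (-1.13 small, -1.11 large subunit), beside 0.00 over all genes. Rpl12, a protein at the base of the stalk, fell most. It held 837, 1128, 918 and 806 CPM in NSC and 225, 252, 236 and 234 CPM in AGES (log2 fold change -1.96 ± 0.12 (SE), adjusted p = 6.28e-14). Rpsa led the small subunit, with 2154, 3087, 2228 and 1927 CPM in NSC and 663, 717, 669 and 643 CPM in AGES (log2 fold change -1.80 ± 0.13 (SE), adjusted p = 7.75e-12). NSC replicate 2 was the highest library in both genes. Rps19 fell by 1.33 ± 0.12 on the log2 scale (SE), Rplp0 by 1.48 ± 0.12, Rps6 by 0.97 ± 0.10, Rpl5 by 1.11 ± 0.09, Rpl11 by 0.83 ± 0.09, Rpl10 by 0.98 ± 0.08 and Rpl41 by 0.71 ± 0.15. The smallest fall of the small subunit was 0.80 ± 0.10 in Rps21 and that of the large subunit 0.47 ± 0.07 in Rpl22. Rpl22 held 273, 319, 313 and 310.4 CPM in NSC and 220.1, 235, 217 and 202 CPM in AGES. The 20 proliferation markers moved with the core genes here, from 6393 to 7189 CPM summed in NSC to 127 to 140.2 CPM in AGES, and in adult culture from 122 to 137 CPM to 1962 to 2364 CPM. Of the 20, 20 rose in adult culture, from Pcna (1.49 ± 0.12) to Cdk1 (6.97 ± 0.18), 18 rose in neonatal culture and 20 fell in AGES, where the shares of all genes called in these directions were 38.8%, 34.4% and 34.0%. Their sum also rose in neonatal culture, from 726 to 1134 CPM to 1576 to 2261 CPM. Their part in the core gene differences was not tested.

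Across the 77 core genes, the changes in adult culture and those of AGES against NSC, which share no library, correlated at Pearson r = -0.38 and Spearman rho = -0.31. The corresponding values were Pearson r = 0.34 and Spearman rho = 0.25 for the adult and neonatal culture changes and Pearson r = 0.49 and Spearman rho = 0.45 for AGES against NSC beside neoAC CellC against AdAC CellC. Of 10 pairs of comparisons without a shared library these 3 lay farthest from 0, and the other 7 had Pearson r from -0.17 to 0.07. The values describe 77 genes that share base composition and pseudogene families and are not independent.

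By the median core gene AGES lay between the cultured primary astrocytes. Against AdAC CellC, 51 core genes were called lower and 2 higher in AGES, beside 45.2% and 31.0% of all genes, with a median log2 fold change of -0.38 (-0.34 small, -0.38 large subunit) where all genes had -0.23. The 2 genes higher were Rps21 (0.24 ± 0.10) and Rpl7 (0.22 ± 0.09), and with library size alone, where the median of all genes was -0.44, neither passed and Rpl7 turned to -0.00194. Both were also lost where every library had to hold at least 10 counts and without AGES replicate 2 or AdAC CellC replicate 2, Rpl7 also without AGES replicate 1 or AdAC CellC replicate 3, and Rps21 also without AGES replicate 3. Against neoAC CellC, 62 were called higher and 4 lower, beside 34.1% and 40.5% of all genes, with a median of 0.60 (0.63 small, 0.58 large subunit) where all genes had -0.07. Rpl10 (1.15 ± 0.08) and Rps23 (1.07 ± 0.09) were at the top. The 4 called lower were Rpl29, Rplp0, Rps18 and Rps3a1. With library size alone the percent of all calls that were higher went from 45.7% to 31.5%, the median of all genes to -0.37, and the core counts were 45 higher and 8 lower.

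The same 4 genes departed from the core median by more than 1 log2 unit in 1 or both of these comparisons, and Rps2 did so in adult culture. No other core gene did so in any comparison. Rpl29, a large subunit protein (chr9:106429454-106431568, plus strand, GRCm38), departed most. The NSC libraries held 53.6, 59.5, 69.8 and 64.2 CPM and the AGES libraries 29.9, 32.7, 29.7 and 29.6 CPM. Among neonatal astrocytes the direct libraries held 158, 162, 179 and 115 CPM and the cultured ones 173, 123, 142 and 151 CPM. Among adult astrocytes the direct libraries held 52.9, 64.1, 61.2 and 56.6 CPM and the cultured ones 282, 248, 263 and 277 CPM. NSC, the group highest in 74 core genes, thus held about as much Rpl29 mRNA as AdAC direct, the group lowest in 76. Rpl29 was lower in AGES than in AdAC CellC (log2 fold change -3.13 ± 0.12 (SE), adjusted p = 7.26e-18) and than in neoAC CellC (log2 fold change -2.27 ± 0.12 (SE), adjusted p = 2.86e-15), and lower in AGES than in NSC by 1.02 ± 0.11 where the core median fell by 1.12.

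Set against the median core gene of the same library, on the log2 CPM scale, Rpl29 stood at -3.66 to -3.19 in NSC and -3.25 to -3.11 in AGES. In the mouse-derived groups it stood at -0.48 to -0.29 (neoAC CellC), -0.59 to -0.29 (neoAC direct), -0.55 to -0.43 (AdAC CellC) and -0.97 to -0.55 (AdAC direct). All 8 libraries of the embryonic stem cell line thus lay apart from all 16 libraries from mice. Rplp0 stood at 0.33 to 0.67 in NSC and 0.17 to 0.27 in AGES, against 0.92 to 1.69 over the mouse-derived libraries. Rps3a1, a small subunit protein, stood at -0.76 to -0.41 in NSC and -0.66 to -0.48 in AGES, against 0.18 to 0.66. In these 2 genes as well the 8 libraries did not overlap the 16. Rps18, a small subunit protein at the contact of the subunits, did not split that way, with -0.19 to 0.07 in NSC, -0.64 to -0.46 in AGES and -0.23 to 0.00 in AdAC direct. Rplp0 was lower in AGES than in AdAC CellC (-1.85 ± 0.12) and neoAC CellC (-0.87 ± 0.12), Rps18 likewise (-1.54 ± 0.13 and -0.36 ± 0.13, the second lost without neoAC CellC replicate 1), and Rps3a1 likewise (-1.40 ± 0.10 and -0.44 ± 0.09). All 4 were singled out by the size of these departures, so the departures are a description. Pseudogene copies can share reads with such genes. The copy Rpl29-ps2 held 0 to 24 counts per library, and how reads that map to several places were counted is not given in the sources used here.

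**Figure D3:**
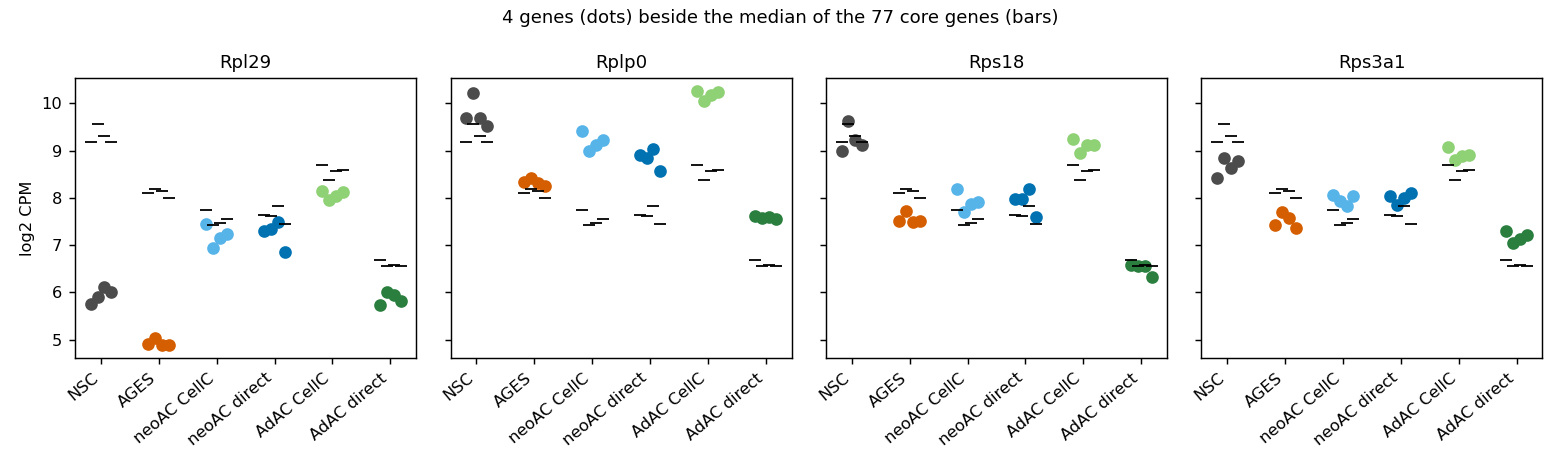
Dots give log2 CPM of Rpl29, Rplp0, Rps18 and Rps3a1 in each library and black bars the median of the 77 core genes in the same library. Rpl29 lies more than 3 log2 units below the median in every NSC and AGES library and less than 1 below it in every other library.

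**Figure D4:**
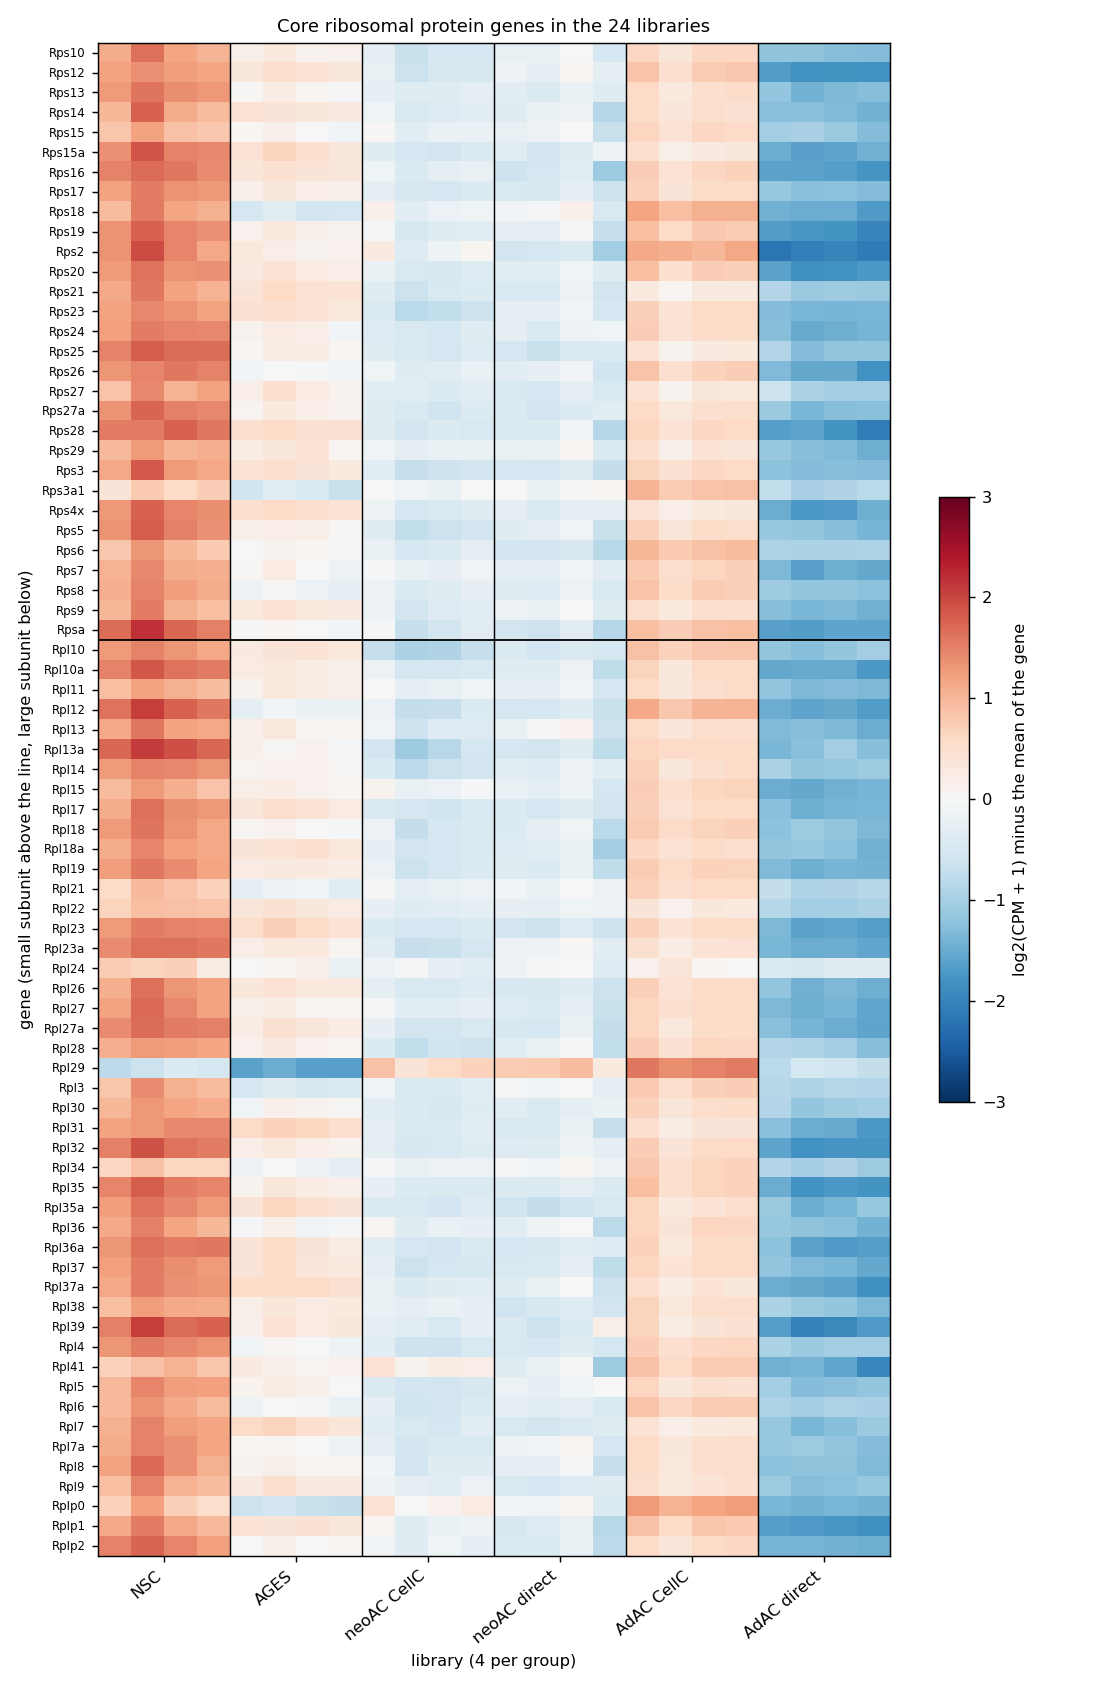
Rows are 76 of the 77 core genes and columns the 24 libraries, coloured by log2(CPM + 1) minus the mean of the gene over libraries. NSC columns are red and AdAC direct columns blue in nearly all rows, and Rpl29 breaks the pattern with its lowest values in AGES.

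The subunits moved nearly together, with a small difference in balance. The ratio of summed small to large subunit counts was 0.685 to 0.695 in AdAC direct, 0.724 to 0.743 in neoAC direct, 0.725 to 0.741 in neoAC CellC, 0.756 to 0.763 in AdAC CellC, 0.752 to 0.770 in AGES and 0.779 to 0.838 in NSC. AdAC direct lay below and NSC above all others, the neonatal groups overlapped each other, and AGES overlapped AdAC CellC. Sums are led by the genes with most counts, Rpsa first, and the subunit medians of the fold changes differed by at most 0.08 in any comparison.

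Among the paralogues, Rps27l was higher in cultured than in freshly frozen primary astrocytes. It held 29.96, 28.5, 32.1 and 32.0 CPM in neoAC direct and 95.7, 98.5, 89.7 and 100.0 CPM in neoAC CellC (log2 fold change 1.65 ± 0.08 (SE), adjusted p = 4.11e-15), and 19.5, 17.6, 17.8 and 18.4 CPM in AdAC direct and 146, 127, 131 and 134 CPM in AdAC CellC (log2 fold change 2.88 ± 0.08 (SE), adjusted p = 1.43e-19). No cultured library of the primary astrocytes came near a direct one. Its parent Rps27 rose in adult culture by 1.22 ± 0.11 and did not pass in neonatal culture. The rise of Rps27l was larger in adult cells (log2 fold change 1.23 ± 0.11 (SE), adjusted p = 5.35e-10). As a percent of the counts of the pair, not corrected for length, Rps27l made up 17.3% ± 0.774 in neoAC direct, 15.03% ± 1.24 in AdAC direct and 16.98% ± 0.813 in AGES (SD, n = 4), against 38.3% ± 0.357 in neoAC CellC, 35.6% ± 1.25 in AdAC CellC and 28.2% ± 2.48 in NSC. AGES, although cultured, thus lay near neoAC direct. Its log2 ratio to Rps27 rose by 1.65 in adult and by 1.57 in neonatal culture, and the ratio of AGES minus that of NSC was -0.94 (differences of mean log2 ratios). Each had p = 0.0286 in a two-sided exact permutation test of 4 against 4, the smallest that design allows, and adjusted p = 0.0444 over the 42 ratio tests, the value shared by the 27 that passed. Those 27 include every comparison of Rpl3l, whose low groups are near the floor. The adjusted value depends on how many tests reach the smallest p. The other ratios, here and below, pass only with the Rpl3l tests in the set, so their passing is marginal. Rps27l was lower in AGES than in NSC (-1.82 ± 0.08), AdAC CellC (-1.47 ± 0.08) and neoAC CellC (-0.98 ± 0.08).

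Rps27l is itself 1 of the 12 genes in the p53 target list. Of the 12, 12 rose and 0 fell in adult culture (median log2 fold change 1.96), 11 rose and 0 fell in neonatal culture (1.61), and 2 rose and 8 fell in AGES against NSC (-0.73). Among all genes the shares called were 38.8% higher and 39.2% lower in adult culture, 34.4% higher and 31.3% lower in neonatal culture and 31.7% higher and 34.0% lower in AGES against NSC. The ends of the list were Cdkn1a, the inhibitor of cyclin-dependent kinases (5.17 ± 0.23), and Ei24 (0.83 ± 0.07) in adult culture, and Bbc3 (1.21 ± 0.15) and Cdkn1a (-2.36 ± 0.21) for AGES against NSC.

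Rpl22l1, the paralogue of Rpl22, was led by NSC. It held 106, 126, 95.2 and 98.0 CPM in NSC and 31.9, 27.4, 24.98 and 32.3 CPM in AGES (log2 fold change -1.87 ± 0.14 (SE), adjusted p = 4.86e-12), a larger fall than that of Rpl22 given above. Its percent of the pair was 25.9% ± 2.64 in NSC and 11.8% ± 1.70 in AGES, with 19.8% ± 1.31 in neoAC CellC, 21.0% ± 3.70 in neoAC direct, 16.7% ± 1.505 in AdAC CellC and 16.7% ± 1.196 in AdAC direct. The log2 ratio differed between AGES and NSC by -1.39 and between AGES and neoAC CellC by -0.90, both among the tests that passed. In adult culture Rpl22l1 rose with its parent (1.26 ± 0.14), and the ratio moved by only -0.0043 (exact permutation p = 1). In the direct libraries it was higher in neonatal than in adult astrocytes (1.19 ± 0.14), with neoAC direct replicate 4 highest at 55.1 CPM.

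Rpl36al, which encodes a near copy of Rpl36a, rose in adult culture (2.09 ± 0.10) as Rpl36a did (2.09 ± 0.10), and both fell in AGES against NSC (-1.500 ± 0.10 and -1.14 ± 0.10). Its percent of the pair was lowest in AGES at 21.2% ± 1.70 and stood at 31.4% ± 0.905 in AdAC CellC and 30.55% ± 1.02 in neoAC CellC, log2 ratio differences of -0.77 and -0.71 that passed. Against NSC the ratio difference was -0.36 and did not pass (exact permutation p = 0.0571, adjusted p = 0.08). Rpl7l1, a nucleolar relative of Rpl7 that acts in ribosome assembly, rose in adult culture (1.30 ± 0.07) and in neonatal culture (0.19 ± 0.07, adjusted p = 0.0234, a call lost without a filter, under the replicate block (0.16) and without neoAC CellC replicate 1 or 4 or neoAC direct replicate 2), and fell in AGES against NSC (-1.05 ± 0.07). Relative to Rpl7 it fell in adult culture by 0.24 and rose in neonatal culture by 0.15 (log2 ratio differences, both passed).

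The tissue-restricted paralogues were near the detection limit. Rpl3l, the muscle form of Rpl3, was measured at 1.53, 0.865, 1.07 and 0.930 CPM in AdAC direct and 0.0921, 0.175, 0.0531 and 0.186 CPM in AdAC CellC, and at 0.227, 0.194, 0.170 and 0.0998 CPM in neoAC direct and 0.593, 0.812, 0.997 and 0.582 CPM in neoAC CellC. The adult direct and the neonatal cultured libraries were thus the high ones, with 28 to 43 and 19 to 36 counts per library, against 2 to 6 in AdAC CellC and 3 to 7 in neoAC direct. It passed the filter only through its high groups while the low ones were near the floor of 3 counts, so no fold change is given. Rpl3l made up 0.479% ± 0.123 of the pair in AdAC direct and 0.230% ± 0.0778 in neoAC CellC. Rpl10l had no count in any library and Rpl39l at most 3 counts in a library, at or under the 3 counts that a count of 0 allows, and neither passed the filter. Rps27rt, an intronless copy of Rps27, had up to 38 counts in a library and rose in adult culture (1.19 ± 0.40, adjusted p = 0.0092). None of its ratios to Rps27 passed, and reads may be shared with the parent. Among the other paralogues the interaction was positive, with Rps27l as given above, Rpl22l1 at 1.48 ± 0.19, Rpl36al at 1.93 ± 0.14, Rpl7l1 at 1.11 ± 0.10 and Rps27rt at 1.498 ± 0.59, the last lost without neoAC direct replicate 2 or 3, AdAC CellC replicate 4 or AdAC direct replicate 1.

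**Figure D5:**
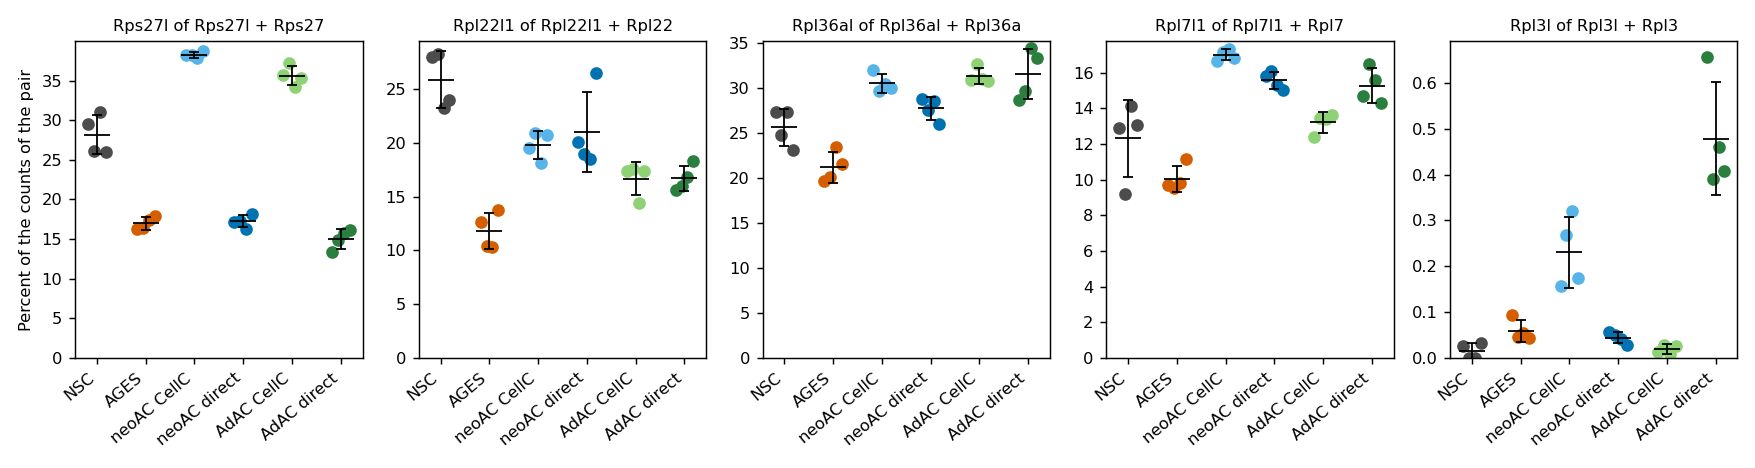
Each panel gives 1 paralogue as a percent of the summed counts of paralogue and parent, one dot per library, with group mean and SD in black and an axis of its own. Rps27l is above 25% in NSC and both cultured primary groups and below 20% in the other groups, and Rpl3l stays below 1% everywhere.

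Of the 6 copies with a ps symbol, 4 passed the filter, with at most 92 counts in a library, and their values are uncertain because they can share reads with their parents. Together the 274 noncoding copies with a ps symbol held 0.00278 to 0.00729% of counts in AdAC direct and 0.0431 to 0.0602% in NSC. Rps19bp1 passed the filter with up to 1438 counts.

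Genes of the same machinery that the naming rule leaves out gave like values. Fau, whose product is cleaved into Rps30, and Rack1, a signalling scaffold on the small subunit, rose in adult culture (1.41 ± 0.14 and 2.25 ± 0.13) and fell in AGES against NSC (-0.78 ± 0.14 and -1.65 ± 0.13), and neither passed in neonatal culture. Their interaction terms were 1.66 ± 0.20 and 2.32 ± 0.18. Rack1 stood at 148, 146, 141 and 139 CPM in AdAC direct and 750.2, 604, 686 and 684 CPM in AdAC CellC, without overlap.

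The other mRNAs with a TOP tract moved in the direction of the core genes in adult culture and in AGES against NSC. Of 22 listed, which include Fau, Rack1 and 5 elongation factors, 22 rose and 0 fell in adult culture (median log2 fold change 1.53), 4 rose and 3 fell in neonatal culture (-0.07), and 1 rose and 20 fell in AGES against NSC (-0.98). The shares of all genes called were 38.8% higher and 39.2% lower in adult culture, 34.4% higher and 31.3% lower in neonatal culture and 31.7% higher and 34.0% lower for AGES against NSC, with medians of 0.00, 0.04 and 0.00. Vim, the intermediate filament of immature and reactive astrocytes, was at the top in adult culture (3.72 ± 0.15) and the lone one to rise in AGES (2.16 ± 0.14), while Eif3k (0.89 ± 0.08) and Npm1, a nucleolar chaperone of ribosome assembly (-2.05 ± 0.11), were at the bottom. Of the 6 elongation factors, 6 rose and 0 fell in adult culture (median log2 fold change 1.75), 1 rose and 0 fell in neonatal culture (-0.14), and 1 rose and 5 fell in AGES against NSC (-0.91). Eef1b2 (2.11 ± 0.10) and Eef1d (1.22 ± 0.09) were the ends in adult culture. Eef1a2 (2.87 ± 0.34), the form of neurons and muscle, and Eef1g (-1.33 ± 0.10) were the ends in AGES against NSC.

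The genes that make ribosomes are read here against the shares of all genes just given. Of 46 ribosome biogenesis factors, 45 rose and 1 fell in adult culture (median log2 fold change 1.41), 22 rose and 3 fell in neonatal culture (0.24), and 1 rose and 45 fell in AGES against NSC (-1.75). Nop58, of the box C/D snoRNP, rose most in adult culture (2.90 ± 0.14), and its partner Nop56 fell most in AGES (-2.85 ± 0.11), whereas Sbds, which frees the large subunit from an assembly factor, went the other way in both (-0.58 ± 0.07 and 1.23 ± 0.07). Of 16 genes of RNA polymerase I and its factors, 14 rose and 1 fell in adult culture (median log2 fold change 0.86), 6 rose and 3 fell in neonatal culture (0.12), and 0 rose and 14 fell in AGES against NSC (-1.06). Cd3eap, a polymerase I subunit (1.88 ± 0.14), and Taf1a, of its promoter factor (-0.30 ± 0.10, lost with library size alone), were the ends in adult culture. Of 13 snoRNA host genes, many of them TOP RNAs, 11 rose and 1 fell in adult culture (median log2 fold change 0.93), 2 rose and 10 fell in neonatal culture (-0.61), and 0 rose and 12 fell in AGES against NSC (-1.41). Snhg15 (2.41 ± 0.18) and Snhg20 (-1.19 ± 0.12) were the ends in adult culture. The next list holds 55 genes named for initiation factors, some of which, such as Eif4ebp1 and Eif4ebp3, encode repressors. Of these, 44 rose and 4 fell in adult culture (median log2 fold change 0.99), 14 rose and 14 fell in neonatal culture (-0.04), and 4 rose and 44 fell in AGES against NSC (-0.69), the neonatal counts being smaller shares than those of all genes. At the ends in adult culture were Eif4ebp3, a repressor of the cap-binding protein (-1.30 ± 0.38), and the Y-linked Eif2s3y, whose counts are given above with the sex difference between these groups. Of 77 mitochondrial ribosomal protein genes tested, whose products serve a different ribosome, 65 rose and 1 fell in adult culture (median log2 fold change 0.69), 44 rose and 2 fell in neonatal culture (0.24), and 5 rose and 69 fell in AGES against NSC (-0.69). Mrps6 (1.86 ± 0.12) and Mrpl48 (-0.56 ± 0.08) were the ends in adult culture.

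The 20 regulators of ribosome production in the mTORC1 and Myc list moved in both directions: 10 rose and 8 fell in adult culture (median log2 fold change 0.16), 3 rose and 12 fell in neonatal culture (-0.36), and 8 rose and 8 fell in AGES against NSC (-0.18). In adult culture and in AGES against NSC these counts lay not far from the shares of all genes called (38.8% higher and 39.2% lower, and 31.7% higher and 34.0% lower). In neonatal culture the shares of all genes were 34.4% higher and 31.3% lower, so a smaller part of the list rose and a larger part fell. Myc was higher in AdAC CellC than in AdAC direct (log2 fold change 3.58 ± 0.15 (SE), adjusted p = 1.53e-16), lower in AGES than in NSC (-3.13 ± 0.15), and higher in neoAC direct than in AdAC direct (2.94 ± 0.15). In neonatal culture it was slightly lower (-0.36 ± 0.14, adjusted p = 0.0219), a call lost with library size alone, with at least 10 counts required, and without neoAC CellC replicate 2 or 3 or neoAC direct replicate 1 or 3. Eif4ebp1, the translation repressor that mTORC1 phosphorylates, was at the top in adult (5.23 ± 0.21) and neonatal culture (3.07 ± 0.19), and Mxd1, a Max partner, at the bottom in adult culture (-1.85 ± 0.15). For AGES against NSC the ends were Mxd4 (1.56 ± 0.12) and Myc.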

How the data were processed

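Poly(A) RNA of 24 mouse samples in 6 groups of 4 was sequenced from stranded libraries. Per the submitters' processing notes, reads were converted with bcl2fastq 2.20 and aligned to GRCm38 with STAR 2.7.3a, and featureCounts gave the counts. The authors deposited whole-number read counts per Ensembl gene in one table, not normalized. The settings for strand, read pairs and reads that map to several places are not given in the sources used here, so counts of genes with an antisense partner or with pseudogenes are uncertain. All columns were matched to samples by title.

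Gene symbols came from Gencode vM21 (GRCm38), which held 49412 of the 49671 genes. The members and lists were chosen with earlier results of these data known. Counts were fitted with edgeR 4.0.16 (R 4.3.3): TMM scaling, filterByExpr, which kept 19691 genes, 1 model over 6 groups, robust quasi-likelihood tests and Benjamini-Hochberg adjustment over all genes tested, with a threshold of 0.05. DESeq2 1.42.0 was an alternative. Comparisons were 7 pairs of groups and the interaction of culture and age. CPM are relative to the TMM-scaled library size. Log2 ratios of paralogue to parent used counts + 0.5 and a two-sided exact permutation test, where the paralogue had over 3 counts in every library of a compared group. Genes named in the text are the paralogues and parents, the highest and lowest core gene per subunit and comparison, 8 well-known core genes, those more than 1 log2 unit from the core median, and the ends of the lists, mostly for adult culture. Values of 2 single genes are not reported here. The fitting code was tested on simulated data. Sequences were from RefSeq (GRCm38.p6), and protein sequences are not shown. Alternatives were other scalings, filters and tools, a fit of the compared groups only, a replicate block and leaving out each library. No library was left out of the results given. Intervals are standard errors of the fit or SD over libraries.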

Additional observations from a re-analysis of the deposited data

Results flagged for a closer look

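In 14 of the 360 sets of 4 library values checked for a sample far from the other three, 1 library stood apart by Dixon's criterion on the gap over the range, and chance alone gives about 1 in 20: Rpsa in AdAC CellC (1135 CPM), Rpl22l1 in neoAC direct (55.1 CPM), Eef1b2 in NSC (957 CPM), Nop58 in AdAC direct (19.5 CPM), Cdkn1a in AdAC CellC (619 CPM), Rpl29 in AGES (32.7 CPM), Npm1 in NSC (1363 CPM), Rps18 in AGES (211 CPM), Rps18 in AdAC direct (80.3 CPM), Cd3eap in AdAC direct (9.39 CPM), Snhg15 in NSC (8.38 CPM), Mrps6 in neoAC CellC (121 CPM), Cdk1 in NSC (282 CPM), Cdk1 in AGES (8.15 CPM). The set includes genes of the other lists that the text names. The high Rpl29 library of AGES and the other AGES libraries all lie below every library of the other groups. In Rpl22l1 the value of neoAC direct replicate 4 lies above the other neoAC direct libraries, and that library also gave the lowest core share of its group.

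The change with culture differed between adult and neonatal astrocytes, by the interaction term, in 77 of 77 core genes. Among the genes named the differences (log2, adult minus neonatal) were Rps12 2.83, Rpl12 2.56, Rps27 1.14, Rpl24 1.03, Rps2 2.60, Rps27l 1.23, Rpl22l1 1.48, Rpl36al 1.93, Rpl7l1 1.11, Rps27rt 1.498, Fau 1.66, Rack1 2.32. All of these terms were positive.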

How the results depend on the processing

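The counts of 77 called core genes in the adult culture, AGES against NSC, both age comparisons and the interaction stayed within 1.5 times under every alternative. Neonatal culture, with 9 higher and 10 lower, gave 35 higher and 0 lower with library size alone (median 0.21), 4 higher without a filter, 6 lower with at least 10 counts in every library, and 5 higher when only the compared groups were fitted. Leaving out 1 library gave 4 to 10 higher and 6 to 14 lower. AGES against AdAC CellC, with 2 higher, gave 4 with DESeq2 size factors, 4 by the DESeq2 Wald test, 0 with library size alone (median -0.60), 7 without a filter (median -0.26), 0 with at least 10 counts, 6 with the compared groups only, and 0 to 3 without 1 library (0 without AGES replicate 2 or AdAC CellC replicate 2). AGES against neoAC CellC, with 4 lower, gave 8 with library size alone (median 0.30), and a median of 0.44 with at least 10 counts. With at least 10 counts the medians were 1.74 for adult culture, -0.82 for neoAC CellC against AdAC CellC and 1.71 for the interaction, which was 1.77 with library size alone. Without the 5 core genes with most counts the shares were 4.30% in NSC, 1.90% in AGES, 1.59% in neoAC CellC, 1.39% in neoAC direct, 2.87% in AdAC CellC, 0.735% in AdAC direct. Replicate numbers did not pair the libraries: same-numbered deviations correlated at -0.10 to 0.11, and with the replicate block neonatal culture gave 5 higher and AGES against AdAC CellC 6 higher, the other counts staying within 1.5 times. Of the 2 values that changed sign, Rpl7 in AGES against AdAC CellC went to -0.00194 with library size alone, and the ratio of Rps27rt to Rps27 in neonatal culture, which passed in no setting, to -0.20 with 5 added counts. The cause of these shifts was not tested. Over the 122 single-gene values, 50 refits lost the call in the same direction, 1 changed sign and 1966 did neither. Depth limits Rpl3l, Rps27rt, Rpl24, Rpl10l and Rpl39l.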
